A study of Mus musculus with 4 samples.

Results

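B cell and plasma cell genes, 9 in number, were followed in the aorta of mice of 2 strains on 2 diets. They were chosen by name: Igha, Jchain, Ighm, Ms4a1, Cd79a, Cd79b, Pou2af1, Cd22 and Mzb1. Every probe set annotated to one of these symbols alone was taken, which gave 23 of the 45037 probe sets that are not controls. Another 4 probe sets carry Ighm together with other immunoglobulin symbols and read at most 19.2 intensity units on any array. For values per gene the probe set with the highest mean was used, which placed the 9 among 18193 genes.

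The study used 4 arrays, 1 for each group. The control groups are labelled C57BL/6 apoE-/- and called B6 here. They lack apolipoprotein E, are labelled with atherosclerosis, and were kept on chow (B6 chow) or given a Western diet (B6 Western). The other groups are Ath29 congenic mice with a C57BL/6 strain label, recorded as resistant to atherosclerosis, on the same diets (Ath29 chow and Ath29 Western), and their sample titles carry the tag Ch9. The apoE-/- genotype is stated for the B6 groups, and the labels of the Ath29 groups do not repeat it. All mice were weaned onto chow at 3 weeks of age, and the change of diet came at 4 weeks and lasted 2 weeks. The labels do not say how many mice an array stands for, and since a group has 1 array, every difference here is between single arrays and has no replicate. Series of 4 values follow one order throughout: the B6 chow array, the B6 Western array, the Ath29 chow array and the Ath29 Western array.

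B cells carry on their surface an antibody that is anchored to the signalling pair Cd79a and Cd79b, and Ms4a1 (CD20) and Cd22 sit beside it in the membrane. When a B cell becomes a plasma cell it secretes its antibody, and Jchain joins the heavy chains of the IgM or IgA form into polymers. The coactivator Pou2af1 acts with octamer-binding factors at immunoglobulin promoters, and Mzb1 is a chaperone of the endoplasmic reticulum that helps to assemble antibody. In the vessel wall B cells are found mainly in the adventitia and in lymphoid clusters of the surrounding fat.

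Several antibody transcripts were highest on the Ath29 chow array. Jchain was highest there, at least 16.1-fold above B6 chow. So were 1 of the 11 Ighm probe sets and a pair of kappa light chain probe sets, each more than 2-fold above B6 chow. The brightest Ighm probe set and some other kappa probe sets were highest on a B6 array. The B cell surface gene Ms4a1 read lower on Western diet than on chow in both strains, by 1.66-fold in the B6 strain, short of 2-fold, and by 2.35-fold in the Ath29 strain. The IgA heavy chain Igha read lower on Western diet by 2.42-fold and 2.36-fold, from 1 probe set, and by less than 2-fold when its probe sets were averaged. Cd79a and Cd22 did not exceed the median of all values on any array.

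The promoters of Jchain and Pou2af1 are shown because both genes were highest on the Ath29 chow array and Pou2af1 works through promoter octamers. The sequences are the 250 bases before each gene's start, on the gene's strand, from RefSeq, build GRCm38.p6. The Jchain window lies at chr5:88527898-88528147 on the minus strand and the Pou2af1 window at chr9:51213440-51213689 on the plus strand. Capitals mark TGCAAAT, the core of the octamer ATGCAAAT.
Jchain: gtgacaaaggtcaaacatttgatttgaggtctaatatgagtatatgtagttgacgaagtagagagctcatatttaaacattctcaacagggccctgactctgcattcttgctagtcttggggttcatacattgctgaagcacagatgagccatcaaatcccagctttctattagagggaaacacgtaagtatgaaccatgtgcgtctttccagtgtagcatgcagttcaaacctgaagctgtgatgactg
Pou2af1: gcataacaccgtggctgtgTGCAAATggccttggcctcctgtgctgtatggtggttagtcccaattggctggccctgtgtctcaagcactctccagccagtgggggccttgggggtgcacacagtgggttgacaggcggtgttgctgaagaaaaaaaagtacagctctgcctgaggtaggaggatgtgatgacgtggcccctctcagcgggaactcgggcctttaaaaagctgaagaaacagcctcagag

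Both strands were searched for the octamer, for its core, which lies within it, and for CCCNNGGG, the core of a motif of the B cell factor EBF1. The Pou2af1 window held the core once, beginning 231 bases before the start, and the Jchain window held none of the 3 motifs. Any window of the 9 genes on chromosome 18, where Mzb1 lies, was left out. Windows of 4 of the 9 genes were searched. Of the other two, Cd22 held CCCNNGGG once and Cd79a held none. Among all 32851 promoter windows of the same length, 1.60% held the octamer, 3.56% its core and 11.8% the EBF1 core. A match of letters is not a site of binding, and a window without one says only that these letters are not in it.

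Values of single probe sets are in the deposited intensity units, and sums over lists are of intensities set to a common array median. The median of all values, 28.5 units, served as the line above which a value was read, and values under the 25th percentile, 9.59 units, were raised to it before a difference was taken, so such a difference is a bound. A gene was counted as higher or lower when it differed by at least 2-fold with its brighter array above 28.5 units. On this scale 4 of the 9 genes lay above the line on every array (Ighm, Ms4a1, Pou2af1 and Mzb1), 3 on some arrays (Igha, Jchain and Cd79b) and 2 on none. Of the 23 probe sets, 11 exceeded the line on at least 1 array and 6 on all.

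Whether the arrays carried B cells was read from the defining genes. Cd79a read 4.29, 11.4, 8.27 and 7.80, at or near the floor throughout. Cd22, an inhibitory receptor of B cells, read 24.6, 27.8, 14.9 and 22.5, and its other probe set read 1 on every array. Pax5, the factor that fixes B cell identity, reached at most 29.5, on B6 Western. Ms4a1 was above the line on all 4 arrays and Cd79b on both Ath29 arrays, so the markers of B cells did not point one way, and the name B cell is used here for the genes and not as a finding of cells. In whole tissue, fewer cells of a type and less RNA per cell cannot be told apart.

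**Figure D1:**
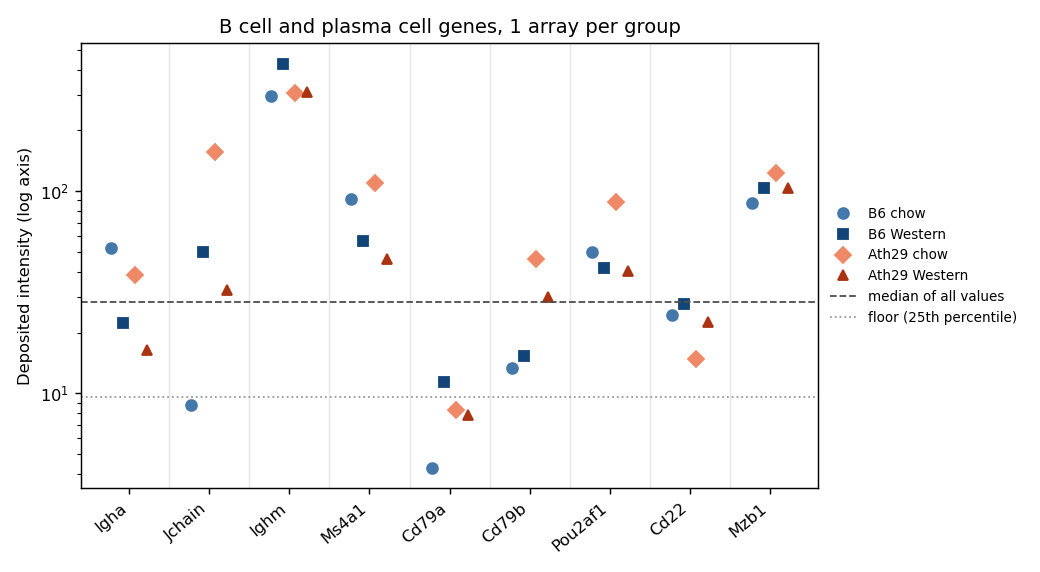
Deposited intensity (log axis) of the 9 genes on the 4 arrays, each gene from 1 probe set and each point from 1 array. The dashed line is the median of all values (28.5) and the dotted line the floor (9.59). Jchain spans 8.75 to 156 units, Igha and Ms4a1 sit lower on both Western arrays than on both chow arrays, and Cd79a and Cd22 stay under the dashed line.

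Jchain, the joining chain of secreted antibody, gave the widest spread. It read 8.75, 49.97, 156 and 32.3 units. B6 chow lay under the floor, the other 3 arrays lay above the line, and Ath29 chow stood above all of them. Relative to the floor, Ath29 chow was higher than B6 chow by at least 4.01 log2 units. On Western diet Ath29 lay 0.62 log2 units under B6. From chow to Western diet, the difference of Jchain was at least 2.37 log2 units in B6 mice and -2.26, or 4.80-fold lower, in Ath29 mice, so the diet differences ran in opposite directions.

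Ighm, the heavy chain of IgM, was covered by 11 probe sets that did not give 1 answer. The brightest, 1427870_x_at, read 297, 428, 307 and 310, a range of 1.44-fold from lowest to highest, with B6 Western on top. The probe set 1427351_s_at read 46.5, 48.0, 193 and 62.8. There Ath29 chow alone was high, 4.02-fold above B6 chow and 3.05-fold above Ath29 Western, while the B6 arrays differed by 0.00 log2 units. The probe set 1452535_at read 30.7, 33.3, 43.1 and 45.9, somewhat higher on both Ath29 arrays, by 0.45 log2 units on chow and 0.47 on the other diet. The fourth above the line, 1425247_a_at, stayed between 27.0 and 37.7 and was highest in Ath29 chow by 1.06-fold over B6 chow. The remaining Ighm probe sets did not pass the line. Of them, 1427756_x_at and 1426196_at were also highest in Ath29 chow, at 27.7 units or less, and 3 lay at the floor on every array. Endings such as x and s mark probe sets that can bind several transcripts, and heavy chain genes share much of their sequence.

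Igha, the heavy chain of IgA, read 52.5 in B6 chow and 38.7 in Ath29 chow against 22.4 in B6 Western and 16.3 in Ath29 Western. Both chow arrays lay above the line and both Western arrays below it. The log2 difference from chow to Western diet was -1.27 in B6 and -1.24 in Ath29 mice, and the strain differences were -0.48 and -0.45. This reading comes from 1 probe set that can bind several transcripts, since the other two Igha probe sets stayed under the line, at 17.3 units or less. One of these, 1421653_a_at, read 17.0, 17.2, 9.84 and 17.3, lowest in Ath29 chow, and did not share the order of the diets. The last, 1429381_x_at, read 10.7, 6.95, 16.3 and 7.79, highest in Ath29 chow as Jchain was. Igha and Jchain are parts of the same secreted IgA, and on the brightest Igha probe set they were highest on different arrays.

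Light chain probe sets, which are no members, were set beside these because every antibody carries a light chain. Of 38 further immunoglobulin probe sets, 32 lay under the line on every array and 6 passed it on at least 1. Among the 6 were 3 annotated jointly to 5 kappa symbols including Igkc. The probe set 1427660_x_at read 243, 268, 659 and 212, and 1452417_x_at read 212, 234, 698 and 195. On both, Ath29 chow was high and the other 3 arrays lay close together. Ath29 chow was above B6 chow by 2.63-fold and 3.19-fold, and Western diet was below chow in Ath29 mice by 3.08-fold and 3.55-fold. The one remaining of the 3, 1427455_x_at, read 139, 267, 181 and 248 and did not share that order. Igk, read from a probe set of its own, had 53.4, 43.6, 67.3 and 42.3 units, again highest in Ath29 chow but by less. A kappa probe set annotated to 3 variable-region symbols, 1451965_at, read 125, 83.9, 90.2 and 103, highest in B6 chow. The lambda gene Iglv1 read 49.7, 18.3, 35.0 and 41.8, lowest in B6 Western. Ighg3, a heavy chain of IgG, did not pass the line. Of the 17 immunoglobulin genes listed beside the members, 13 had no probe set of their own here.

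**Figure D2:**
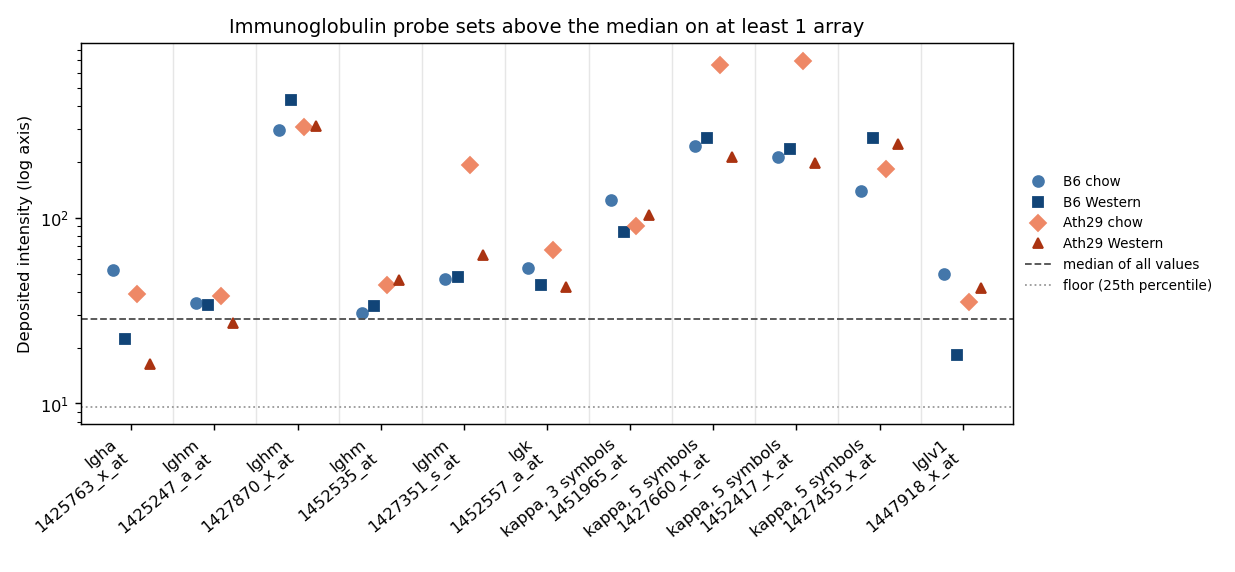
Deposited intensity (log axis) of the 11 immunoglobulin probe sets, Igha and Ighm included, that exceeded the median of all values (dashed line) on at least 1 array. Each point is 1 array, and "kappa" marks probe sets annotated to several kappa symbols. The Ath29 chow points of 1427351_s_at, 1427660_x_at and 1452417_x_at, at 193, 659 and 698, stand well above the other arrays. Ath29 chow is also highest on 1425247_a_at (37.7) and 1452557_a_at (67.3), by little, and the 6 remaining probe sets are highest on another array.

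Mzb1, the antibody-assembling chaperone, read 87.95, 104, 123 and 104. Ath29 chow was again the highest, but all 4 values lay within 1.40-fold of each other. Mzb1 was not counted as higher or lower in any comparison.

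Pou2af1 read 49.8, 41.6, 88.1 and 40.3. Ath29 chow was high and the other 3 arrays lay together. The strain difference was 0.78 log2 units on chow and -0.04 on Western diet, and the diet difference was -0.30 in B6 and -1.12 in Ath29 mice. Pou2af1 is the one of the 9 genes on chromosome 9, the chromosome of the Ath29 locus, where it is number 240 in order among 714 genes above the line on at least 1 array. Its direct neighbours, Layn and Arhgap20, differed between strains by 0.18 and -0.77 on chow. On Western diet their differences were -0.07 and -0.33. Over the 5 such genes on each side, the differences ran from -0.77 to 1.14 (Sik2, a kinase) on chow and from -0.96 (1110032A03Rik) to 0.04 on Western diet. Pou2af1 lies inside both ranges, but on chow Sik2 alone of these genes stood above it, and the next highest, Fdx1, was at 0.32.

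Of the surface genes, Ms4a1 gave the clearest signal. It read 91.9, 56.9, 110 and 46.4, with both Western arrays below both chow arrays. Western minus chow gave -0.73 log2 units in B6 mice and -1.23 in the Ath29 strain. A second probe set from the same transcript sequence read 41.9, 26.2, 47.9 and 27.5, with diet differences of -0.72 and -0.79. Between strains these probe sets differed by 0.21 and 0.15 on chow, and on Western diet by -0.29 and 0.08. The order of the diets was the same on both probe sets, and the order of the strains on Western diet was not.

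Cd79b, the partner of Cd79a in signalling, read 13.3, 15.3, 46.2 and 29.9. Both Ath29 arrays lay above the line and both B6 arrays below it. The strain difference was 1.75 log2 units on chow and 0.97 on Western diet, the second just under 2-fold. The table holds no detection call to say whether the B6 values stand above background, so the size of these differences is uncertain. Cd79a, which pairs with Cd79b in B cells, did not accompany it.

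**Figure D3:**
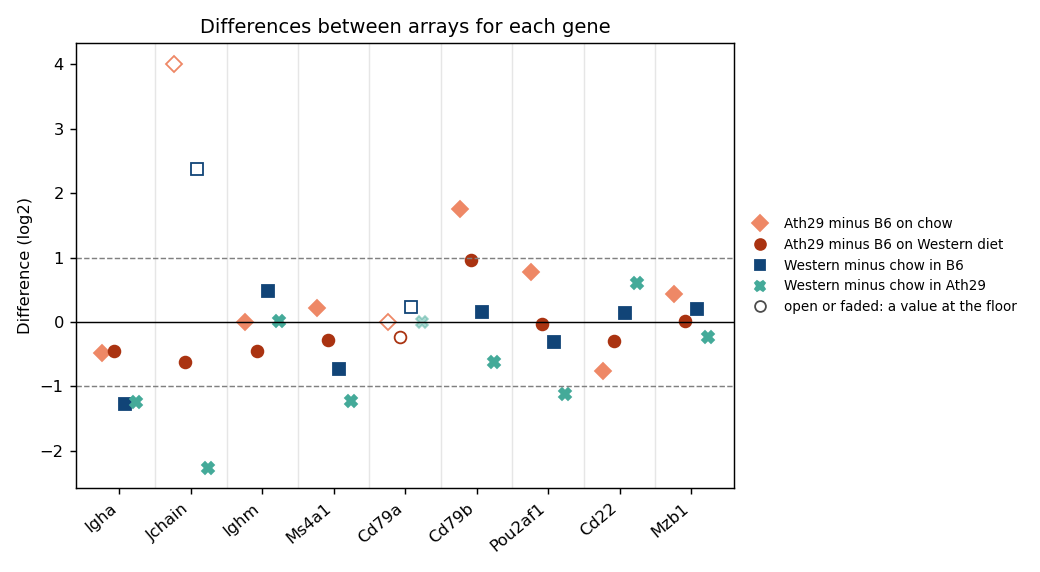
Log2 differences of the 9 genes in the 4 comparisons, from values with the arrays at a common median. Dashed lines mark 2-fold, and open or faded marks rest on a value at the floor. Jchain reaches 4.01 and 2.37 (both bounds) and -2.26, Cd79b 1.75, and Igha, Ms4a1 and Pou2af1 lie under -1 for Western minus chow in Ath29 mice.

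The first comparison asks how the strains differ on chow. Here 2 of the 9 genes, Jchain and Cd79b, were higher in Ath29 mice (1.96% of all 18193 genes were) and 0 were lower (1.67% of all genes). The median log2 difference over the 9 was 0.21, against 0.00 over all genes. On Western diet 0 were higher and 0 lower, where 1.06% and 1.92% of all genes were, and the median was -0.29. The highest was Cd79b, and the lowest was Jchain at -0.62.

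The other question is how diet differs within a strain. In B6 mice 1 gene, Jchain, was higher on Western diet and 1, Igha, was lower, where 3.33% of all genes were higher and 1.21% lower. In Ath29 mice 4 of the 9, Igha, Jchain, Ms4a1 and Pou2af1, were lower on Western diet and 0 were higher, where 1.06% and 1.30% of all genes were. The median over the 9 was 0.16 in B6 and -0.62 in Ath29 mice. The strain comparison on chow and the diet comparison in Ath29 mice share the Ath29 chow array, so a high value there enters both.

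The diet differences of the strains share no array and can be set side by side. At 2-fold, Igha alone of the 9 was lower on Western diet in both strains, as were 0.0330% of all genes, 6 in number. With its probe sets averaged Igha no longer passed in either strain, at -0.50 and -0.39 log2 units, and without probe sets ending in s, x or a it had no value. At 1.5-fold Igha and Ms4a1 were, against 0.335% of all genes. Higher on Western diet in both strains were 0 of the 9, where 0.198% of all genes were at 2-fold and 0.643% at 1.5-fold. Between strains, 0 of the 9 were higher on both diets at 2-fold and 0 lower, as were 0.0934% and 0.137% of all genes. Cd79b alone was higher in Ath29 mice on both diets at 1.5-fold, against 0.363% of all genes, and 0 were lower, against 0.638%.

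A fit of additive strain and diet effects with limma, whose error term is the strain by diet difference, left 0 genes under an adjusted p of 0.05 for either effect. At an unadjusted p under 0.05 it held 1028 genes (5.65%) for strain and 877 (4.82%) for diet. Igha was the 1 member among each of these, with a diet effect of -1.25 log2 units (standard error 0.05, adjusted p 0.976 by limma) and a strain effect of -0.47 (standard error 0.05, adjusted p 0.838 by limma). The diet effect of Ms4a1 was -0.98 (standard error 0.20) and the strain effect of Cd79b 1.36 (standard error 0.30), with adjusted p of 0.976 and 0.838 by limma. When the fit was limited to genes with a mean above 27.4 units, the median of the probe set means, the standard error of Igha rose to 0.24. Igha then no longer passed an unadjusted p of 0.05 for strain (p 0.0977 by limma), and Igha and Ms4a1 (p 0.00903 by limma) did for diet. For Jchain the strain effect of 1.69 had a standard error of 1.79. With 1 residual degree of freedom this fit cannot single out a gene that is high on 1 array.

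Other B cell genes were read from a list of 23, of which 21 had a probe set and 11 passed the line. None was counted as different between strains on chow or between diets in B6 mice. Between the Western arrays 3 were lower in Ath29 mice: Cxcr5, the receptor that guides B cells into follicles, Pax5 and Fcrla, an intracellular Fc receptor-like protein. Cxcr5 read 35.6, 46.3, 22.1 and 18.2, with both Ath29 arrays under the line. Fcrla read 28.8, 46.3, 25.2 and 20.1, highest in B6 Western, from a probe set that can bind several transcripts. The other Fcrla probe sets stayed under the line, at 19.9 units or less, and were highest in Ath29 Western. Cr2, a complement receptor of mature B cells and follicular dendritic cells, read 29.2, 27.2, 37.6 and 8.19, and was lower in Ath29 Western than in Ath29 chow by at least 1.96 log2 units. Fcer2a, the low-affinity IgE receptor, was lower on Western diet in both strains by less than 2-fold, at 32.5 and 31.8 on chow against 18.8 and 19.8. Tnfrsf13c, the receptor for the survival factor BAFF, read 42.4 on both chow arrays, 23.7 in B6 Western and 40.5 in Ath29 Western.

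Signalling genes downstream of the B cell receptor were mostly even. Of 15 listed, 13 had a probe set and 12 passed the line, and 1 was counted in any comparison. This was Pik3ap1, an adaptor of PI3 kinase that macrophages also use, at 28.8 in Ath29 chow and 65.0 in Ath29 Western, against 37.5 and 36.4 in B6 mice. The list median lay between -0.05 and 0.13 in the 4 comparisons.

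All 18 listed plasma cell genes had a probe set, and 13 passed the line. The strain difference on chow was negative for 12 of the 18 genes and positive for 4, so most of the list did not follow Jchain there. The list median lay between -0.08 and 0.06 log2 units in the 4 comparisons. Tnfrsf17, the BCMA receptor of plasma cells, read 25.8, 14.0, 36.0 and 14.4. It passed the line in Ath29 chow alone, and its difference from chow to Western diet was -1.32 in Ath29 and -0.93 in B6 mice. Slamf7, a receptor of plasma cells, NK cells and macrophages, read 29.5, 69.96, 62.1 and 40.7, lowest in B6 chow as Jchain was, and highest in B6 Western. Irf4, a factor needed for plasma cells, read 43.9, 70.8, 37.2 and 33.3 and was lower in Ath29 than in B6 mice on Western diet by 2.12-fold. Genes of the secretory machinery, such as Ssr4, Creld2 and Edem2, are active in many cells and stayed within 2-fold. Ssr4 read 575, 539, 397 and 433, Creld2 134, 119, 110 and 154, and Edem2 53.1, 55.7, 32.75 and 57.6. On these probe sets each was lowest in Ath29 chow. Another Ssr4 probe set above the line, at 85.1, 79.4, 71.6 and 46.3, was lowest in Ath29 Western. Prdm1, the factor that drives the plasma cell state, did not pass the line.

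Signals that attract or keep B cells were read from 12 genes, of which 8 had a probe set and 4 passed the line. Cxcl13, the chemokine that draws B cells, read 16.7, 97.2, 63.5 and 56.2. Only B6 chow lay under the line. The log2 difference was 2.50 between diets in B6 mice, -0.17 in Ath29 mice and 1.89 between strains on chow. A second Cxcl13 probe set read 38.7, 30.0, 42.1 and 38.1 and did not share this order. Tnfsf13b, which encodes BAFF, read 55.3, 50.3, 40.7 and 97.9, with Ath29 Western high and a diet difference of 1.28 in that strain. Its second probe set above the line, at 31.1, 49.3, 46.0 and 71.2, was also highest in Ath29 Western. Cxcl12, a chemokine that holds plasma cells in marrow and that stromal cells make, stayed between 3336 and 4544.5 units.

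**Figure D4:**
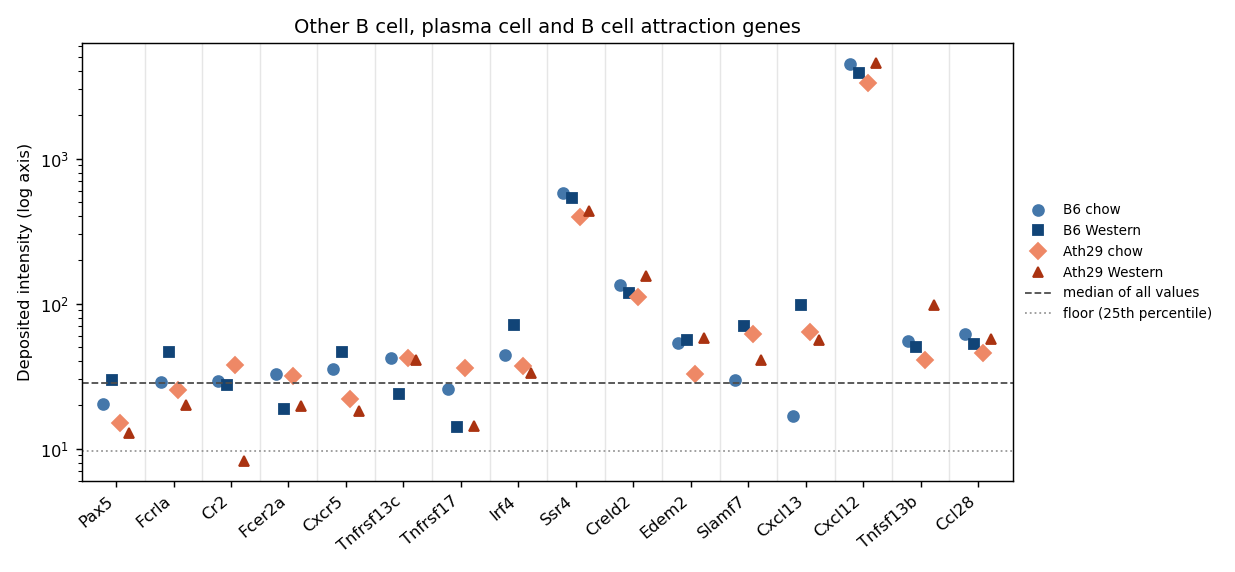
Deposited intensity (log axis) of named genes from the lists of other B cell, plasma cell and B cell attraction genes, each point 1 array. The dashed line is the median of all values (28.5) and the dotted line the floor (9.59). The B cell genes lie on both sides of the dashed line, from 8.19 (Cr2, Ath29 Western) to 46.3 (Fcrla and Cxcr5, B6 Western), Cxcl13 is low in B6 chow (16.7), and Tnfsf13b is high in Ath29 Western (97.9).

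The genes whose pattern over the 4 arrays lay closest to Jchain were sought among 12743 genes above the line on at least 1 array, by Euclidean distance of log2 values centred on each gene's mean. They were Trim67 at a distance of 0.89, A530053G22Rik at 1.22, Prtg at 1.25, Ccl25 at 1.27 and Akap5 at 1.34. Trim67 read 7.79, 46.3, 71.1 and 22.6. Ccl25, a chemokine of gut and thymus that also attracts IgA-producing cells, read 9.77, 27.5, 71.4 and 43.0. No immunoglobulin gene was among the 5, but members and probe sets with several symbols were no candidates. Ighm, Igha and the pair of kappa probe sets could therefore not appear there. For Cd79a, at the floor on 3 arrays, the closest were Stx6, Ncbp3, Masp1, Eny2 and Rbx1, at distances of 0.01 to 0.03, which says only that they were nearly even over the arrays.

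Markers of other cells and tissues moved with some of these results. Of 9 brown fat genes with a probe set, 5 were higher in Ath29 than in B6 mice on chow and 7 were higher on Western diet in B6 mice. Their summed intensity, with the arrays set to a common median, was 9677, 19201, 14872 and 11831. So fat signal, like Jchain and Cxcl13, was lowest in B6 chow. Its highest array was B6 Western, while that of Jchain was Ath29 chow. The brighter Cxcl13 probe set and Slamf7 had the same order of arrays as the fat sum, and the second Cxcl13 probe set did not. Among 4 red cell genes with a probe set, 1 was higher in Ath29 chow than in B6 chow, Slc4a1, the anion exchanger of red cells (36.7, 33.4, 114 and 48.4). It was highest in Ath29 chow as were Jchain and Pou2af1. The sum of the red cell list ran from 436 in B6 chow to 762 in Ath29 Western, and the haemoglobin gene Hba-a1 was at the floor on every array. The sum over 18 macrophage genes was 6402, 12577, 7605 and 12507, higher on both Western arrays, the reverse of the order of Ms4a1 and Igha. All 10 smooth muscle genes read lower in Ath29 chow than in B6 chow, and 2 were counted as lower. These were Myh11, the smooth muscle myosin heavy chain (2008, 1380, 841 and 1322), and Myl9, a myosin light chain (1548, 1255, 669 and 1106). Both were lowest in Ath29 chow, the array on which Jchain, Pou2af1 and the pair of kappa probe sets were highest. Heart muscle genes summed to 12818 in B6 Western and to at most 1232 elsewhere. The part of any of these in the results was not tested.

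Markers of lymphoid organs and of other cells were read from further lists. Of 16 T and NK cell genes with a probe set, 6 passed the line and 0 were counted in any comparison, their sum ran from 623 to 740, and Cd3e, Cd3g, Cd4 and Cd8b1 were at the floor on every array. Of 6 lymph node genes with a probe set, 4 passed the line (Cxcl13, Cr2, Fcer2a and Lyve1), and their sum was 744, 1056, 830 and 807, mostly Lyve1. Cxcl13 and Cr2, given above, were the 2 counted in any comparison, while Glycam1, a gene of lymph node venules, was at the floor throughout. The thymocyte genes Rag1, Rag2, Dntt and Ptcra did not pass the line, and the sum over 8 genes of that list, 1081 to 2095, was mostly Cd1d1. Of 10 epithelial genes 5 passed the line, with sums of 167 to 291, and 2, Cldn3 and Cldn4, were higher in Ath29 than in B6 mice on Western diet. The neutrophil list gave sums of 486 to 549.7 and 0 counted genes. The part of these cells in the results was not tested.

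The extract protocol names liver while the source label names aorta. All 10 smooth muscle genes lay above the line on every array, with sums of 29639 to 35178, and albumin (Alb) read 33.0 to 64.6. The sum over 9 hepatocyte genes, 2749 to 5097, was mostly Cyp2e1, and 4 of them did not pass the line. White fat genes summed to between 23692 and 30522. The 4 array medians lay between 27.9 and 28.8. With 1 array for each group, the spread within a group could not be estimated.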

How the data were processed

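The authors deposited 1 table of intensity values, read as linear from a range of 0.57 to 13421. No label or header names the software, background correction or scaling behind them, and 2.64% of values are exactly 1. Per the labels, biotin-labelled cRNA came from 8 ug of RNA for Affymetrix arrays. Of 45037 probe sets without controls, 34945 had 1 symbol in the platform annotation, 932 had several and 9160 none; 34741 were matched to reference genes of assembly GRCm38.p6. Gene chromosomes and order come from that table.

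Intensities were taken to log2, set to a common median, and floored at the 25th percentile (pandas 2.3.3). The additive fit used limma 3.58.1 in R 4.3.3. Its estimate of a known additive change was checked on simulated data, which held no strain by diet difference beyond noise. Members and lists were chosen with earlier results of these data known. Named were all members, up to 6 genes of a list by largest difference, and the 5 genes closest to Jchain and to Cd79a. Prdm1, Ighg3, Hba-a1, Glycam1, other low markers, further immunoglobulin probe sets and the neighbours of Pou2af1 were added after values were seen. Alternatives were other scalings, floors, filters, probe set choices and fold thresholds.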

Additional observations from a re-analysis of the deposited data

Results flagged for a closer look

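The diet difference of Jchain ran in opposite directions in the strains, by at least 2.37 log2 units higher on Western diet in B6 mice and by -2.26 in Ath29 mice. The difference between these values rests on 1 array per group and was not tested.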

How the results depend on the processing

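Counts of the 9 genes and their medians were recomputed with arrays quantile normalized, left unshifted or set to a common 75th percentile, under a higher or no floor, no demand on the brighter array, a filter on the mean, other probe set choices and other fold thresholds. With the filter, which keeps 6 of the 9 genes, 1 gene was higher in Ath29 mice on chow. Genes lower on Western diet in B6 mice numbered 0 with the mean of all probe sets, 0 when probe sets ending in s, x or a were left out, 2 at 1.5-fold and 0 at 3-fold. On Western diet 1 gene was higher and 1 lower in Ath29 mice at 1.5-fold, and in Ath29 mice 1 was lower on Western diet at 3-fold. The other counts stayed within 1.5 times and all medians within 1.5-fold. Of 308 single-gene values under 9 settings, 298 stayed within 1.5-fold, 10 moved further and 0 called differences changed sign. Part of the 298 could not move, since the filter on the mean leaves each value as it was. Genes with 1 probe set are likewise unchanged by the other probe set choices, so the 298 overstate how stable the values are. With all probe sets averaged, the diet difference of Igha was -0.50 in B6 and -0.39 in Ath29 mice. With the floor at the 40th percentile the bound for Jchain on chow was 3.07. Reading Ighm from its second brightest probe set, chosen after seeing the data, gave a strain difference of 2.01 on chow. The additive fit called 0 genes under each setting, with 304 genes for strain and 291 for diet at an unadjusted p under 0.05 after the filter on the mean and 1057 and 916 with quantile normalization. No paired analysis was possible because each group holds 1 array and no replicate number pairs arrays across groups, although the additive fit does take strain within diet and diet within strain.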
